A study of Mus musculus with 5 samples.

Results

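The immediate early factors of the AP-1, EGR and NR4A families were read here in mast cells that had been raised in culture from mouse bone marrow. The 10 genes Fos, Fosb, Fosl2, Jun, Junb, Jund, Egr1, Egr2, Egr3 and Nr4a1 were taken by symbol from the 25549 rows of the authors' deposited table, and each symbol had a single row. The groups were Cpa3-Cre;miR-9∆fl/∆fl, with 3 samples and called the miR-9 line here, and Cpa3-Cre, with 2. All came from C57BL/6 mice matched for age and sex, and no age is stated. Both groups carry Cpa3-Cre, a Cre recombinase under the promoter of the carboxypeptidase gene Cpa3, which is active in mast cells, and the miR-9 line adds the miR-9∆fl/∆fl allele. Whether that allele gains or loses miR-9 once Cre has acted is not in the labels. The cells had grown for 6 to 8 weeks with interleukin-3 at 50 ng/mL and were left untreated, so the comparison concerns cells that had not been activated on purpose. Libraries of total RNA depleted of ribosomal RNA were sequenced as pairs of 50-base reads, with 70000000 reads per sample as the stated depth. The labels do not tie samples to separate animals or cultures, so each p-value reflects the spread among these samples, which may be technical. Values per library were not analysed here, so no level of a gene, and no count of samples that share a direction, stands behind the fold changes.

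Immediate early genes are transcribed within minutes of a stimulus without new protein synthesis. Signals through the MAP kinases and through calcium reach factors that already sit on their promoters: serum response factor (SRF) with its ternary complex factor partners at the CArG box, and CREB at the cyclic AMP response element (CRE). FOS proteins pair with JUN proteins to make AP-1, EGR proteins are zinc finger factors that bind GC-rich sites, and NR4A1 is an orphan nuclear receptor. In mast cells, crosslinking of the IgE receptor and stem cell factor both induce these genes, and AP-1 and EGR factors act on cytokine genes such as Tnf and Il13.

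The promoters below are shown because the members share a direction of fold change, and because these 4 carry most of the motif matches found. Each runs from 250 bases before to 50 bases after the annotated start site, 5′ to 3′ on the gene's strand, from the RefSeq table of GRCm38.p6, and capitals mark the matched motifs. Of a gene's entries there, the one with a start site nearest to any exon start of the authors' gene model was taken. For Egr2, this start site lies inside the authors' model, which begins upstream of the window, at 67535475.
Fos promoter, chr12:85473640-85473939, plus strand: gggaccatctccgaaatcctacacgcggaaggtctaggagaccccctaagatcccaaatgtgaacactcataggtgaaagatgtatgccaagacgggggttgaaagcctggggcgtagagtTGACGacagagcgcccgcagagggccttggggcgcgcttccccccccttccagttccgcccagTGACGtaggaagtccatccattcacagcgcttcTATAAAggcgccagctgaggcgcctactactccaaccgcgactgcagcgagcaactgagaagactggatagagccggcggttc
Fosb promoter, chr7:19309996-19310295, minus strand: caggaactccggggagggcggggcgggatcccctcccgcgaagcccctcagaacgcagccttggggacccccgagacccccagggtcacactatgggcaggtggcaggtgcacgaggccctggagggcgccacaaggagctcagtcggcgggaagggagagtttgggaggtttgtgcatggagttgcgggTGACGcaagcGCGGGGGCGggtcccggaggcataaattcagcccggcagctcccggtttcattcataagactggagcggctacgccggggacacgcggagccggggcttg
Egr2 promoter, chr10:67537619-67537918, plus strand: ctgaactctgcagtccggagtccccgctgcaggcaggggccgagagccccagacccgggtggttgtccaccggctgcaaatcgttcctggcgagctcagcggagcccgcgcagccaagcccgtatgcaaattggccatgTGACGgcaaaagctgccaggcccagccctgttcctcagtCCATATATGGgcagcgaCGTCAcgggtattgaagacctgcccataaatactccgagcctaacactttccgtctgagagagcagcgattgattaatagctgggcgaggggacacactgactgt
Nr4a1 promoter, chr15:101266596-101266895, plus strand: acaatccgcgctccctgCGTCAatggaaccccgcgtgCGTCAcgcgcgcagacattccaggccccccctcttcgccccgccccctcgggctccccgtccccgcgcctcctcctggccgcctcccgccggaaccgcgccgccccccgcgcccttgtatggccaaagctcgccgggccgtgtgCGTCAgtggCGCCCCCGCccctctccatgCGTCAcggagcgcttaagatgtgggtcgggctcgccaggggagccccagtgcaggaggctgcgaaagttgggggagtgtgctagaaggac
Of the 10 members, 8 matched the promoter table, and Egr1 and Egr3 did not. The search covered both strands for the CArG box by its name, the full CRE (TGACGTCA), its core (TGACG, which also lies inside the full CRE and was added after the sequences were seen), the AP-1 site (TGANTCA), the EGR site (GCGNGGGCG) and the TATA box (TATAAA). A CArG box was found in the window of Egr2 alone among the 8, where 1.63% of the 32851 promoter windows in the table hold it. The core TGACG was found in 5 of 8 member windows (Fos, Fosb, Junb, Egr2 and Nr4a1) with 10 matches in all, 4 of them in Nr4a1, and 20.8% of all windows hold it. An EGR site was found in 3 of 8 (Fosb, Fosl2 and Nr4a1), where 5.55% of all windows hold it. The member windows had a median GC content of 62.3%, against 52.7% over all windows, which bears on how often GC-rich letters are met. TATAAA stood in the windows of Fos and Junb, where 13.6% of all windows hold it. It lay at bases -33 to -28 from the annotated start site in Fos. In Junb it lay at bases 0 to 5, on the annotated start site itself and not before it. The full CRE (1.79% of all windows) and the AP-1 site (7.81%) were in none of the 8 windows. The windows of Jun and Jund held none of the motifs searched. Near variants were not counted, and the Jun window holds TGACATCA, which is close to the letters of the full CRE. The Jund window has the lowest GC content of the 8, at 46.7%, and lies at the start of the deposited model, upstream of the GENCODE M21 start site of Jund, which it does not reach. A match is a run of letters and does not show that a factor binds there. A motif more than 250 bases before a start site lies outside these windows. A missing match therefore does not show that a gene lacks the motif.

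**Figure D1:**
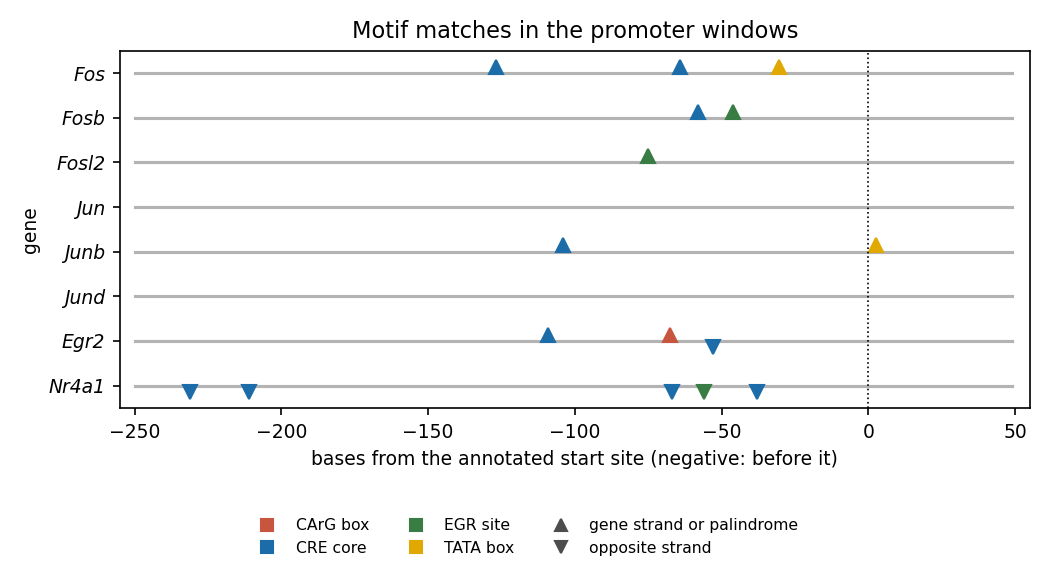
Motif matches in the promoter windows of the 8 matched members. The horizontal axis gives bases from the annotated start site, negative before it; each triangle is the centre of a match, pointing up on the gene's strand and down on the opposite strand, and coloured by motif. Nr4a1 shows 4 matches to the CRE core, Egr2 the single CArG box, and Jun and Jund no match.

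All 10 factors had a negative log2 fold change in the miR-9 line relative to Cpa3-Cre cells in the authors' deposited table, from -0.83 for Fosb to -0.29 for Egr2, and none passed the test. The median over the 10 was -0.64, a ratio of 0.641, where the 24071 genes that have a p-value had a median of -0.09. Of those genes, 59.8% were negative, and 11.5% had a value as low as the members' median or lower. At a Benjamini-Hochberg adjusted p under 0.05, computed here over all genes as are all adjusted p-values below, 0 of the 9 members with a p-value were called in either direction, and at an unadjusted p under 0.05 again 0 of 9. As the background of both rules, 0.411% of all genes were called at the adjusted threshold, 0.166% lower and 0.245% higher, and 7.92% had an unadjusted p under 0.05, 4.05% lower and 3.87% higher. No member passed an adjusted p of 0.10, which 0.968% of genes did, or the design text's p of 0.0001, which 0.299% did. The members' unadjusted p-values ran from 0.106 to 0.540 in the authors' deposited table, and their adjusted p-values from 0.738 to 0.934. A p-value that misses the threshold does not show that expression was alike in both genotypes. Of the 6199 genes inside the members' range of fold changes, 2.65% had an unadjusted p under 0.05 and 0 were called at the adjusted threshold. These genes were picked by the size of their fall, so few calls among them follow in part from that choice. The called gene with the smallest fall in the authors' deposited table stood at a log2 fold change of 0.92 in size, further from 0 than Fosb. In RNA of a whole culture, fewer cells of a type and less RNA per cell cannot be told apart.

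The deposited fold changes may be smaller than the measured ones. The size of a log2 fold change divided by the normal score of its p-value equals its standard error (SE) if the p-value came from a Wald test. Over the 24071 genes in the authors' deposited table that ratio had a ceiling of 0.540, and 8.43% of genes lay within 1% of it. Fold changes that DESeq2 shrinks towards 0 have such a ceiling, whereas unshrunken ones do not. The ratio had a median of 0.496 over the 9 members with a p-value. Its median was 0.396 over all genes with a p-value and 0.342 over the protein-coding ones. If it is an SE, the members' fold changes were less precise than those of a typical gene. The SE values below are this ratio and hold only if a Wald test was used, which no source used here states; the design text names DESeq2 and an analysis of variance.

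**Figure D2:**
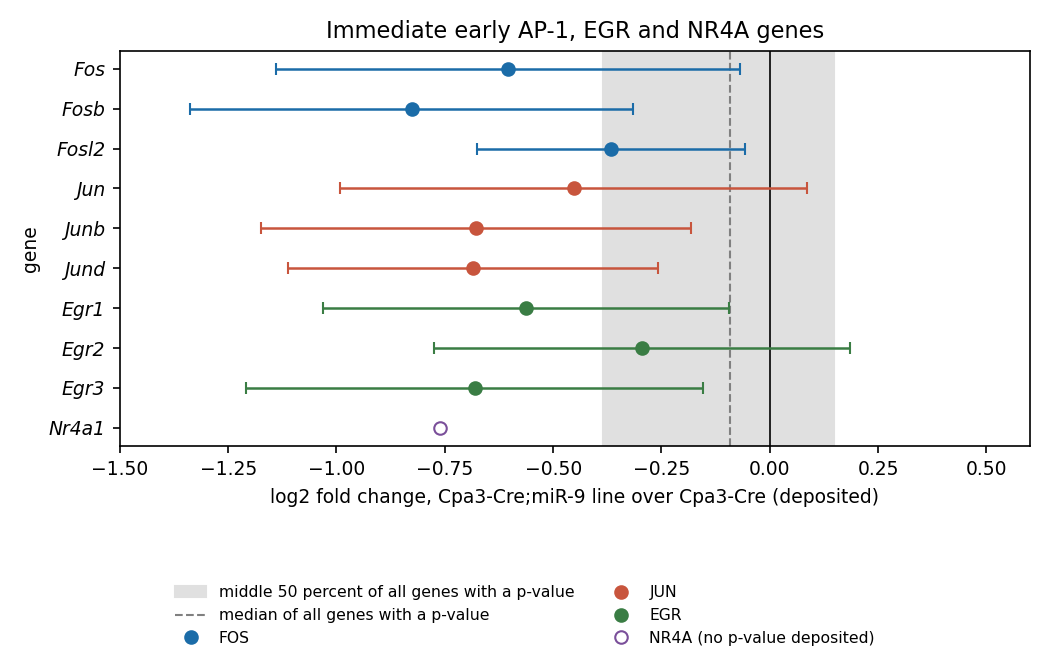
Deposited log2 fold changes of the 10 members, miR-9 line over Cpa3-Cre (horizontal axis), 1 gene per row. Bars are 1 SE as implied by the p-value under a Wald test; the open circle is Nr4a1, which lacks a p-value, and the grey band holds the middle 50% of all genes with a p-value. All 10 points lie left of 0, and the bars of Jun and Egr2 cross it.

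The FOS genes had a median log2 fold change of -0.60. Fosb, which encodes a full-length activator and a truncated splice form, had the lowest value of the 10, at -0.83 (SE 0.51, p = 0.106, adjusted p = 0.738 by Benjamini-Hochberg) in the authors' deposited table. This is a ratio of 0.564, and 5.90% of all genes had a value as low or lower. Fos, the family's founding member and the most widely used marker of recent stimulation, stood at -0.60 (SE 0.53, p = 0.259) in the authors' deposited table. Fosl2, which encodes FRA-2, a partner of JUN proteins that lacks the FOS activation domain, stood closer to the bulk of genes, at -0.37 (SE 0.31, p = 0.237) in the authors' deposited table. Its SE was the smallest of the 9, and 26.1% of all genes had a value as low or lower. The differences among the 3 were within 1 SE of Fos or of Fosb, and the fold changes of different genes were not tested against each other. On GRCm38, Fos spans 85473890 to 85477273 on the plus strand of chromosome 12 in 4 exons, Fosb 19302721 to 19310045 on the minus strand of chromosome 7 in 4 exons, and Fosl2 32136472 to 32157831 on the plus strand of chromosome 5 in 4 exons.

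The JUN genes had a median of -0.68. Jund, whose product is present in unstimulated cells of many types and can restrain growth, stood at -0.68 (SE 0.43, p = 0.108) in the authors' deposited table. Junb, which encodes an AP-1 subunit that can oppose JUN, had nearly the same value, -0.68 (SE 0.50, p = 0.172) in the authors' deposited table. Jun, which encodes the subunit that can also pair with itself and acts on its own promoter, was less negative, at -0.45 (SE 0.54, p = 0.402) in the authors' deposited table. The SE values of Jun and Fos lie within 1% of the ceiling described above. All 3 are genes of a single exon. Jun (chromosome 4, 95049034 to 95052222, minus strand) shares 689 bases with BC042782, a gene model on the opposite strand that stood at -0.19 (p = 0.586) in the authors' deposited table. No source used here says whether reads were counted by strand, so reads of Jun and BC042782 may not have been told apart. It was the one overlap between a member and another row of the table. Junb (84976909 to 84978748, minus strand) and Jund (70697739 to 70700616, plus strand) both lie on chromosome 8.

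The EGR genes had a median of -0.56. Egr3 stood at -0.68 (SE 0.53, p = 0.196) in the authors' deposited table and Egr1, the family member most studied in activated mast cells, at -0.56 (SE 0.47, p = 0.230). Egr2, known for its role in myelination and in T cell tolerance, had the value closest to 0 of all 10 members, -0.29 (SE 0.48, p = 0.540) in the authors' deposited table, with 31.6% of all genes as low or lower. Egr2 lies on chromosome 10 (67535475 to 67542188, plus strand, 5 exons), Egr3 on chromosome 14 (70077445 to 70080157, plus strand, 2 exons) and Egr1 on chromosome 18 (34859823 to 34864984, plus strand, 2 exons).

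Nr4a1, which encodes NUR77, had the second lowest value, -0.76 (a ratio of 0.590) in the authors' deposited table, but its p-value is empty there. A p-value is missing in 5.78% of all rows. The other NR4A genes, Nr4a2 and Nr4a3, also lack it, and stood at -1.21 and -1.23 in the authors' deposited table. These 3 values therefore have no test, and no source used here gives the reason. Nr4a1 spans 101266846 to 101274792 on the plus strand of chromosome 15 in 7 exons. In order from lowest to highest value the members run Fosb, Nr4a1, Jund, Egr3, Junb, Fos, Egr1, Jun, Fosl2 and Egr2, and each pair of neighbours with a p-value differs by less than either SE.

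**Figure D3:**
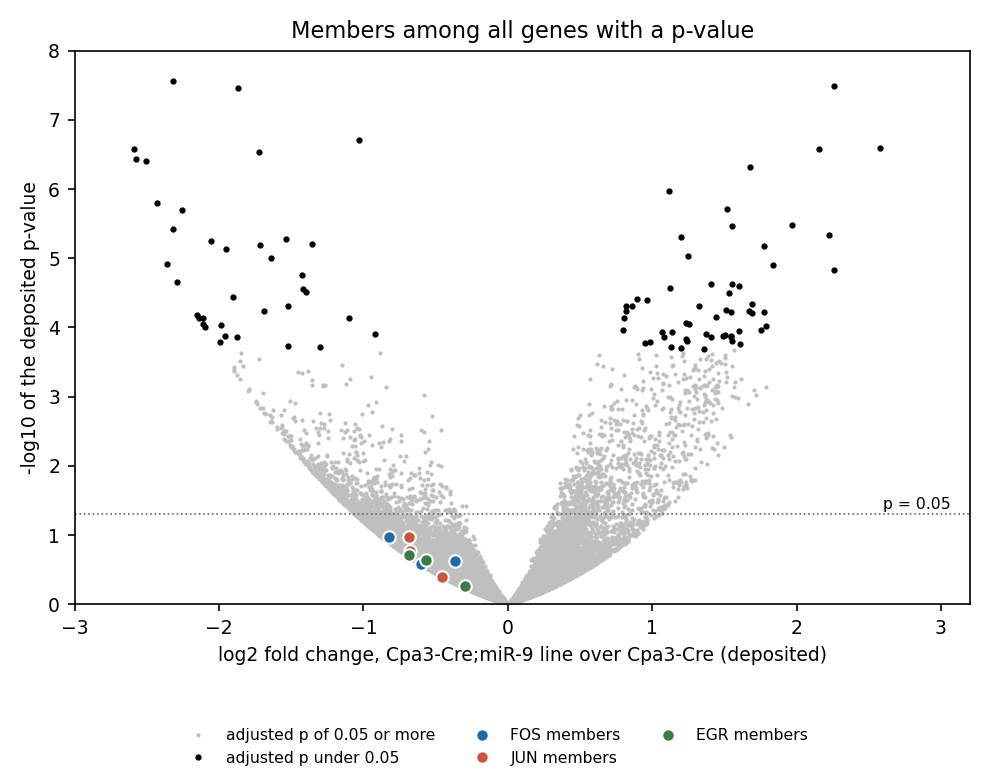
Deposited log2 fold change (horizontal axis) against -log10 of the deposited p-value (vertical axis) for all genes with a p-value; 5 genes lie outside the axes. Black points passed the adjusted threshold of 0.05. The coloured members all lie left of 0 and below the dotted line.

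The members share features that their choice by symbol did not use. Most are compact genes, with a median span of 4273 bases and 3 exons, against 20922 bases and 9 exons over protein-coding genes with a p-value. Fosl2 is the exception in span, at 21360 bases. All 10 carry the pentamer ATTTA, the core of the AU-rich elements that shorten the life of messenger RNAs, in their longest GENCODE M21 3′ UTR, where 67.3% of 15416 genes do. The median density was 2.57 per 1000 UTR bases in the members, against 1.24 over those genes, and it ranged from 0.434 in Fosb to 5.52 in Nr4a1 and 4.91 in Fos.

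Because the genotype concerns miR-9, the members' 3′ UTRs were searched for matches to its seed. The mature microRNAs are shown from RefSeq (GRCm38.p6), with the seed, bases 2 to 8, in capitals; both come from the hairpins of Mir9-1 on chromosome 3, Mir9-2 on chromosome 13 and Mir9-3 on chromosome 7.
miR-9-5p: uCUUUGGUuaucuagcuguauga
miR-9-3p: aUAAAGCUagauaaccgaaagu
Of the 10 members, 1 had a miR-9-5p seed match (Egr3) and 1 a miR-9-3p match (Fosl2), where 13.2% and 11.9% of the 15416 genes have them. Both matches are shown with their flanks, the bases opposite the seed in capitals.
Egr3 site, chr14:70080351-70080357, plus strand: ggtaaggagcgcACCAAAGcgcag
Fosl2 site, chr5:32155102-32155108, plus strand: tctcagttgagaAGCTTTAtcgcc
The Egr3 site lies in a longer UTR of GENCODE M21, past the end of the Egr3 model of the authors' deposited table. At the Mir9-1 locus, the gene model Gm25641, which covers the hairpin but is annotated on the minus strand and so is antisense to it, rose 22.6-fold in the authors' deposited table (adjusted p = 8.74e-18 by Benjamini-Hochberg). Reads of the hairpin's own strand may not have been told apart from it, as for Jun, and the mature microRNA is too short for such libraries.

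Most other immediate early genes lay on the same side of 0. Of 38 listed, 29 had a p-value, and 27 of these (93.1%) were negative by the authors' deposited table, where 59.8% of all genes were; their median was -0.51. None was called at the adjusted threshold, and at an unadjusted p under 0.05 there were 5 lower and 1 higher. This list, like the members and the lists below, was chosen with earlier results of these data known. Its share of negative values is therefore a description and not a test. Zfp36l1, whose product promotes decay of AU-rich messenger RNAs, stood at -0.82 (p = 0.00408, adjusted p = 0.211) in the authors' deposited table. Gadd45b, a stress gene, stood at -1.31 (p = 0.0102, adjusted p = 0.347) and the clock gene Per1 at -0.88 (p = 0.0233, adjusted p = 0.487) in the authors' deposited table. Myc, a driver of growth, was the 1 higher gene at an unadjusted p under 0.05, at 0.55 (p = 0.0122, adjusted p = 0.376) in the authors' deposited table. A p-value was missing for 8 further genes of the list, and Ctgf had no single row under its symbol.

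The AP-1 relatives had a median nearer to that of all genes. Of 13 AP-1 relatives listed, 8 had a p-value, with 5 negative and 3 positive and a median of -0.17 in the authors' deposited table. Of these, 0 were called, and 0 had an unadjusted p under 0.05. Atf7 had no single row under its symbol. Fosl1, the remaining FOS family gene, stood on the other side of 0 from the members, at 0.57 (p = 0.233) in the authors' deposited table, and is named for its family after its value was seen. Egr4 stood at -0.41 (p = 0.365) in the authors' deposited table and Nab1, a corepressor of EGR proteins, at 0.46 (p = 0.107); both were likewise named after their values were seen.

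Upstream of the members, the regulators had medians above that of all genes with a p-value, which was -0.09 with 59.8% negative. The 14 SRF, ternary complex factor, CREB and related genes with a p-value were centred at 0.06 by the authors' deposited table, 7 positive and 7 negative, and the 20 genes of the MAP kinase cascade at 0.13 (both medians), 15 positive and 5 negative. In both lists 0 genes were called and 0 had an unadjusted p under 0.05. Feedback inhibitors of MAP kinases were spread to both sides: of 15 with a p-value, 11 were negative and 4 positive (median -0.16), 0 were called, and 3 had an unadjusted p under 0.05. These were Spred2 at 0.79 (p = 0.00150, adjusted p = 0.125), Spry1 at -1.27 (p = 0.00250, adjusted p = 0.166) and Dusp2, a nuclear MAP kinase phosphatase, at 1.24 (p = 0.0206, adjusted p = 0.462) in the authors' deposited table. Messenger RNA of kinases and their regulators does not report their activity, which was not measured.

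Among cytokine and chemokine genes of activated mast cells, 10 of 16 had a p-value, 8 of them negative by the authors' deposited table; the median was -0.44. None was called, and Il6 alone had an unadjusted p under 0.05, at -0.88 (p = 0.0229, adjusted p = 0.484) in the authors' deposited table.

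**Figure D4:**
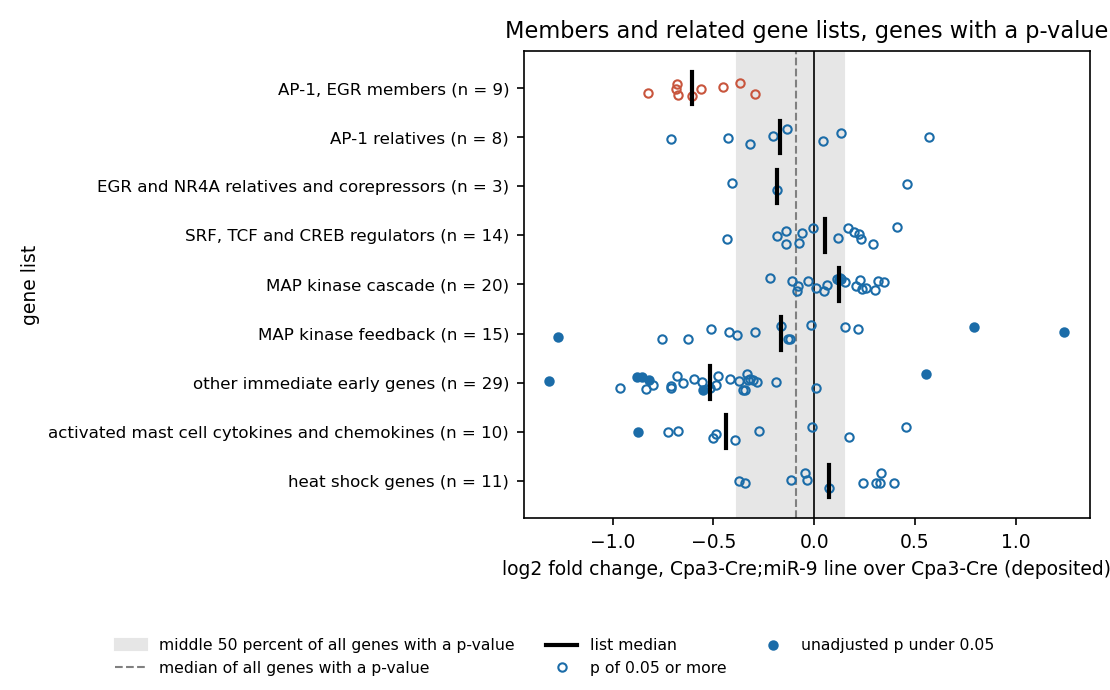
Deposited log2 fold changes (horizontal axis) of the 9 members with a p-value and of 8 related lists, 1 point per gene with a p-value. Black bars are list medians and filled points have an unadjusted p under 0.05; the medians of the members (-0.60), the other immediate early genes (-0.51) and the cytokines (-0.44) lie left of the grey band that holds the middle 50% of all genes.

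Markers of other cells were read beside these results. All 12 mast cell markers had a p-value and, by the authors' deposited table, a median of 0.10; Tpsb2, which encodes a tryptase of the granules, rose (1.60, adjusted p = 0.0149) and Cma1, the chymase gene, stood at 0.97 (p = 0.0176, adjusted p = 0.442). None of 11 neutrophil markers, and 1 of 10 monocyte and macrophage, 1 of 5 eosinophil and 1 of 3 basophil markers, had a p-value, where 5.78% of all rows lack one. A missing p-value does not show that these cells were absent. The fold changes of the neutrophil, monocyte and macrophage, and eosinophil markers were all negative, and those of the basophil markers all positive. The lowest were -0.47 for neutrophil and -0.71 for monocyte and macrophage markers, both without a p-value. Others lay next to 0, such as S100a8 (-0.0007, neutrophil), C1qa (-0.006, monocyte and macrophage) and Prg2 (-0.0003, eosinophil). Of all rows without a p-value, 75.4% were negative. The 6 lymphocyte markers with a p-value were all negative by the authors' deposited table (median -0.52), and 4 of 5 stromal markers were negative, with Pdgfra at -1.47 (p = 0.00628, adjusted p = 0.274); 0 of either list were called. The levels behind these markers were not analysed here, and the part of other cells in the members' values was not tested.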

How the data were processed

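The submitters' processing notes list STAR, HTSeq, DESeq, DESeq2 and Cuffdiff, along with GRCm38 and mm10, and give neither versions nor roles. For each gene, per the file headers, the authors deposited a log2 fold change (miR-9 line over Cpa3-Cre), that fold as a signed score on a linear scale, a p-value, and a gene length. The signed fold matched the log2 value within 0.001 in 100% of rows. No source used here states the model, the filters or whether folds were shrunken. Another 5 columns hold values per library under codes that fit no label of a sample. They were left out, so no test of expression was run here and the planned design's last case applied: the authors' fold changes and p-values.

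The 24071 p-values were adjusted by Benjamini-Hochberg with statsmodels 0.14.6, with 0.05 as threshold; 1478 rows have none. No test over a list was made. The members and lists were chosen with earlier results of these data known. Named genes were all members, genes that overlap them, Gm25641 (the gene model antisense to the Mir9-1 hairpin), and up to 4 genes of each list with the smallest p under 0.05, with all called genes. Nr4a2 and Nr4a3 were named outside this rule, as were the genes said elsewhere to be named or chosen after their values were seen. Gene class and 3′ UTRs came from GENCODE M21 (GRCm38) by symbol and overlapping position; 5 of 10 members start and end within 100 bases of M21, and the other 5 differ in annotated ends. Python 3.11.15, numpy 2.4.6 and pandas 2.3.3 were used, and scipy 1.17.1 for normal scores. The adjustment was tested on simulated data.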

Additional observations from a re-analysis of the deposited data

How the results depend on the processing

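All 47 alternative values computed kept their direction and their side of the threshold, but most could not have done otherwise. An adjusted p cannot fall below its unadjusted p, and the lowest of these was 0.106. Medians over members that are all negative stay negative. Only the values centred on all genes, and the median of protein-coding genes, could have changed sign. Centring on the median of all genes left the members between -0.73 and -0.20. Leaving out 1 member at a time gave medians from -0.68 to -0.60, and the 9 with a p-value, a choice made after the data were seen, gave -0.60. The count of called members was 0 when adjusted over protein-coding genes (lowest adjusted p = 0.609), over unique symbols (0.737), at an adjusted p under 0.10, and at the design text's p threshold of 0.0001. Replicates left out, filters on low values, other scalings and other tools were not run, since values per library were not used. No paired analysis was possible because the result comes from deposited values without libraries.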

Other observations

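Heat shock genes encode chaperones and their regulators. In the authors' deposited table all 11 listed had a p-value, with 6 positive and 5 negative, a median of 0.07 and a range from -0.37 to 0.40; 0 were called, and 0 had an unadjusted p under 0.05. The negative ones in the authors' deposited table were Hspa1b (-0.37), Dnajb1 (-0.34), Hspa1a (-0.11), Hsf1 (-0.04) and Hspb1 (-0.04). The positive ones there were Hsp90aa1 (0.40), Hspd1 (0.33), Hsph1 (0.33), Hspe1 (0.30), Hspa8 (0.24) and Bag3 (0.07). Areg, which encodes the EGF receptor ligand amphiregulin, had the lowest value of the cytokine list, -1.47 in the authors' deposited table, where its p-value is empty. Likewise Tnfaip3, a feedback inhibitor of NF-kB, stood at -1.33 and Dusp1, a MAP kinase phosphatase induced as an immediate early gene, at -0.72 in the authors' deposited table without a p-value. The genes named in these sentences were chosen after their values were seen.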
